A study of Mus musculus with 20 samples.

Results

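The 8 genes described here are components and regulators of the complement system: C1qa, C1qb, C1qc, C4b, C3, Serping1, Cd55 and Cd59a. They were taken by symbol from the 34255 genes of a table of 3′ mRNA read counts from mouse kidney, and all 8 were found. The mice were healthy wild-type males of the strain C57BL6/OlaHsd, 8 to 12 weeks old, with no treatment and no engineered allele in any group. Laser microdissection of frozen renal cortex gave arterioles, glomeruli, peritubular capillaries and postcapillary venules, and sections of whole kidney served as the reference, with 4 libraries in each of the 5 groups. Arterioles, glomeruli and venules were recognised by shape on hematoxylin-stained slides and peritubular capillaries by binding of isolectin B4, so each microdissected sample held the vessel wall and whatever tissue lay within the cut area. In such bulk samples, fewer cells of a type and less RNA per cell cannot be told apart. Microdissected libraries were made with a low-input protocol and more PCR cycles than whole kidney libraries, and this preparation and the tissue cannot be told apart in any comparison with whole kidney. Libraries are named by their group and by the number in the table (93, 96, 98 or 100), and lists of 4 values follow that order.

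Complement is a cascade of plasma and tissue proteins that tags targets for uptake, recruits leukocytes and perforates membranes. In its classical pathway, the C1q molecule, built from the products of C1qa, C1qb and C1qc, binds antibody or altered surfaces, and the proteases attached to it cleave C4 (C4b in the mouse) and C2 into an enzyme that cleaves C3, the protein on which all pathways converge. Regulators keep the cascade in check: Serping1 encodes C1 inhibitor, a soluble serpin that inactivates the C1 proteases, Cd55 encodes decay accelerating factor, a membrane protein that takes apart the C3-cleaving enzymes, and Cd59a encodes a membrane protein that blocks the last step, the assembly of the membrane attack complex. C1q is known as a product of macrophages, while much circulating C3 and C4 comes from the liver. The kidney is a frequent site of damage in complement disorders, and its microvessels carry membrane regulators.

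Of the 8 genes, 2 differed among the 4 microdissected compartments: Serping1 (adjusted p = 0.0223) and Cd59a (adjusted p = 0.0123; edgeR quasi-likelihood test over the 16 microdissected libraries, Benjamini-Hochberg adjustment over 12179 genes). Of all genes tested, 11.4% passed the same test. The call of Serping1 ended without arteriole 98 (adjusted p = 0.0528) or glomerulus 100 (0.0543), and that of Cd59a without glomerulus 96 (0.0543). Serping1 mRNA was most abundant in arterioles (790 ± 251 CPM, SD, n = 4) and Cd59a mRNA in glomeruli (445 ± 81.8 CPM), where CPM is the count relative to the library total after TMM scaling. The C1q chains, C4b, C3 and Cd55 passed the test in no comparison, and in most of these genes single libraries of a compartment ranged from almost no counts to more than 100.

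Against whole kidney, 1 of the 8 genes was called in arterioles (Serping1, higher), at an adjusted p under 0.05 and a log2 fold change above 1 in size, where 11.3% of 13813 genes were called. None was called in glomeruli (3.06% of genes called), peritubular capillaries (0.0941%) or venules (0.224%). Counting only genes whose 4 libraries all lay above the 4 of whole kidney, there were 2 of 8 for glomeruli (14.6% of all genes), 2 for venules (5.81%), 1 for arterioles (8.45%) and 0 for peritubular capillaries (6.08%). Genes whose 4 libraries all lay below whole kidney numbered 1 of 8 for glomeruli (18% of all genes), 0 for venules (14.4%), 1 for arterioles (28%) and 1 for peritubular capillaries (18.3%). At an unadjusted p under 0.05 the counts were 2 of 8 for arterioles, 3 for glomeruli, 1 for venules and 0 for peritubular capillaries, against 33.1%, 15%, 9.36% and 12.4% of all genes. The median log2 fold change of the 8 genes was 0.27 for arterioles, 0.82 for glomeruli, 1.46 for venules and -0.21 for peritubular capillaries, beside 0.22, 0.25, 0.19 and 0.18 over all genes. Between compartments, 1 of the 8 was called in arterioles against glomeruli (2.19% of genes called), 1 in arterioles against peritubular capillaries (11.2%) and 1 in glomeruli against venules (1.22%). None was called in arterioles against venules (4.38% of genes), glomeruli against peritubular capillaries (4.49%) or peritubular capillaries against venules (0.411%).

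**Figure D1:**
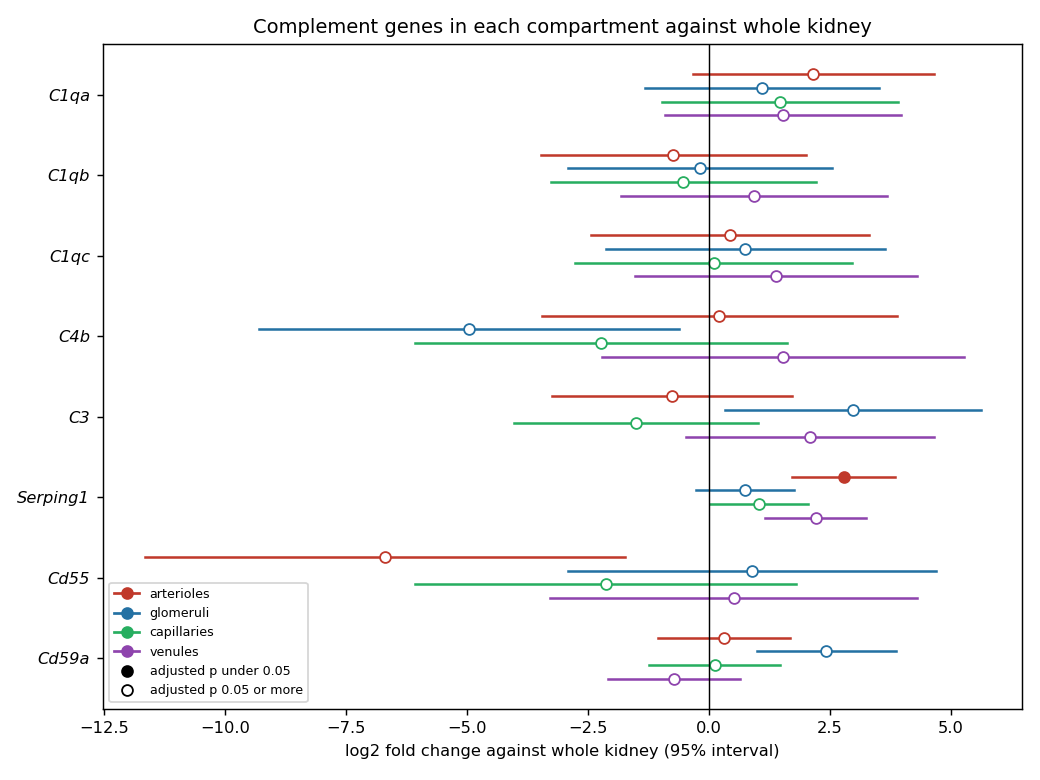
Log2 fold change of each of the 8 complement genes in arterioles, glomeruli, peritubular capillaries and venules against whole kidney; points are edgeR estimates and lines their 95% intervals, and filled points passed the test. Only Serping1 in arterioles is filled (2.79), and the intervals of C4b and Cd55 are the widest.

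The libraries held 4639090 to 12283098 counts, and those from microdissected tissue showed 11339 to 14164 genes with a count, against 18272 to 20474 in whole kidney. Uneven detection was common in the microdissected libraries: 34% of the 13813 genes had 3 counts or fewer in one arteriole library and 100 or more in another, as had 21.9% in glomeruli, 27.4% in venules and 29.4% in peritubular capillaries, against 0.0362% in whole kidney. Marker lists showed arterioles and glomeruli plainly: the summed level of 8 smooth muscle genes was 30425 CPM in arterioles against 300 in whole kidney, that of 7 podocyte genes 7317 CPM in glomeruli against 194, and that of 10 endothelial genes 3835, 3308, 733 and 848 CPM in arterioles, glomeruli, peritubular capillaries and venules against 417. Proximal tubule genes summed to 86139 CPM in peritubular capillaries and 25418 in venules against 34397 in whole kidney, and none of the 10 endothelial genes was called higher in either compartment than in whole kidney (median log2 fold change 0.54 and 1.13). The endothelial list thus did not set these compartments apart from whole kidney by the test, which called only 0.0941% and 0.224% of all genes there. The summed endothelial level per library was 632 to 966 CPM in venules, above the 383 to 459 CPM of whole kidney. In peritubular capillaries it was 413 to 1508 CPM, overlapping whole kidney, and these sums were not tested.

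The 3 C1q chain genes lie side by side on the minus strand of chromosome 4 of GRCm38 (C1qb at 136880129-136886187, C1qc at 136889804-136893065, C1qa at 136895917-136898803), within 18675 bases. C1qa averaged 55.5 ± 46.3 CPM in arterioles, 35.9 ± 40.5 in venules, 34.6 ± 34.4 in peritubular capillaries, 26.6 ± 16.6 in glomeruli and 12.4 ± 4.27 in whole kidney (SD, n = 4 each). Every one of these neighbours in the order overlapped. C1qb was highest in venules (45.9 ± 44.7 CPM) and lowest in arterioles (14.4 ± 15.6), with whole kidney at 24 ± 8.38, glomeruli at 21.2 ± 17.7 and peritubular capillaries at 16.7 ± 13.9. C1qc was also highest in venules (38.3 ± 16.1 CPM), followed by glomeruli (24.7 ± 21.2), arterioles (19.9 ± 35.3), peritubular capillaries (15.7 ± 14.7) and whole kidney (14.7 ± 3.6). For C1qb all groups overlapped, and for C1qc the 4 venule libraries alone lay above all whole kidney libraries. Of all genes tested, 5.81% lay above whole kidney in venules in this way, and the fitted difference of C1qc was not called (log2 fold change 1.39, 95% interval -1.53 to 4.30, edgeR adjusted p = 1).

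Raw counts show how far the chains parted from one another within a library. The arteriole libraries held 22, 545, 253 and 567 counts of C1qa, 141, 9, 228 and 3 of C1qb, and 341, 2, 2 and 35 of C1qc. Thus arteriole 93 was rich in C1qc and poor in C1qa, while arteriole 96 and arteriole 100 held almost only C1qa. Glomerulus 100 held 436 counts of C1qa beside 3 of C1qb and 5 of C1qc, and capillary 100 held 113 of C1qb beside 1 of each of the others. The whole kidney libraries showed no such split: C1qa held 101 to 162 counts, C1qb 185 to 348 and C1qc 139 to 168. As a share of the 3 chains' counts, C1qa ranged from 4.37% to 98% in arterioles, from 13.4% to 98.2% in glomeruli, from 14% to 43.3% in venules and from 0.87% to 75% in peritubular capillaries, against 21.9% to 25.7% in whole kidney. Over the 20 libraries, the log2 levels of C1qa correlated with those of C1qb at -0.26 and with those of C1qc at 0.06, and C1qb and C1qc correlated at 0.36 (Pearson, n = 20, described without a test; the points share their library's depth and preparation).

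**Figure D2:**
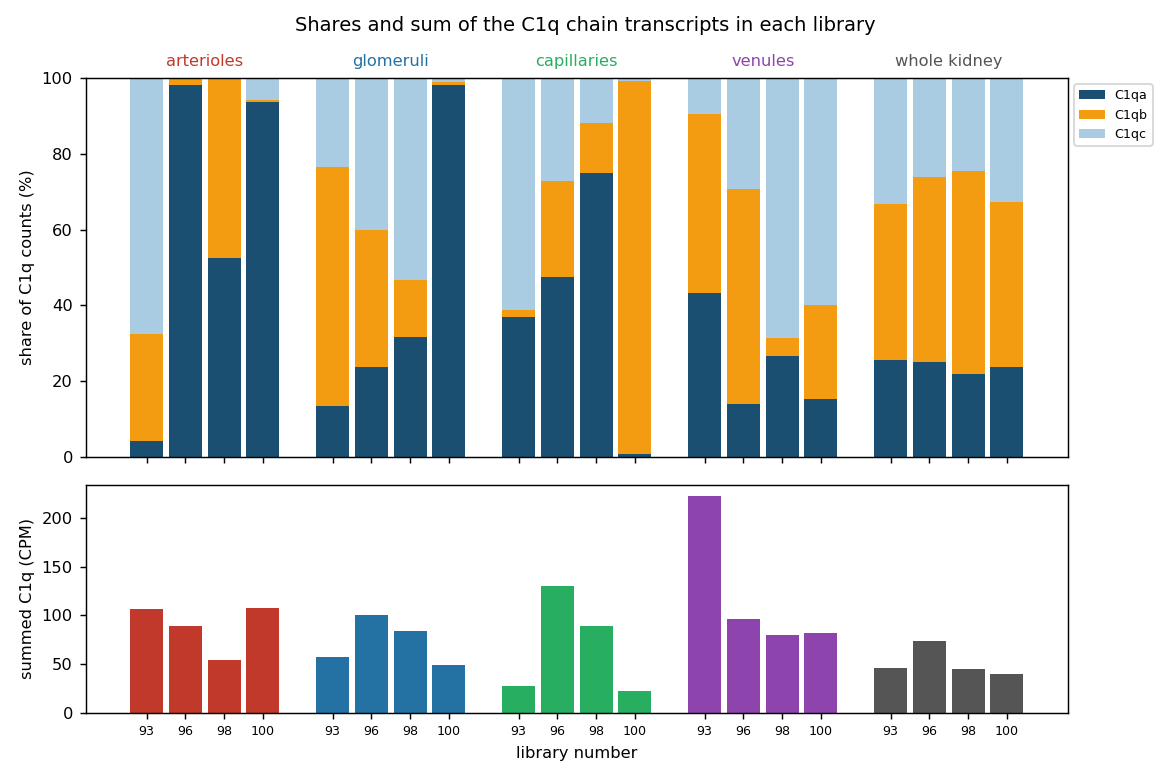
Upper bars give the share (%) of C1qa, C1qb and C1qc among the counts of the 3 chains in each of the 20 libraries, and lower bars the sum of the 3 chains in CPM, by library number and group. The shares are alike in the 4 whole kidney libraries and differ widely within every microdissected group, with C1qa at 98% in arteriole 96 and C1qb at 98.3% in capillary 100.

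The sum of the 3 chains stood at 89.7 ± 25.1 CPM in arterioles, 72.4 ± 23.7 in glomeruli, 120 ± 68.9 in venules, 67.1 ± 51.7 in peritubular capillaries and 51.1 ± 15.4 in whole kidney (SD, n = 4). Libraries ranged from 22.5 CPM in capillary 100 to 223 CPM in venule 93. Venule libraries (80 to 223 CPM) lay above all whole kidney libraries (40.1 to 73.9 CPM), and the other compartments overlapped with whole kidney. The sum was not tested and has no share over all genes beside it, and no single chain was called in venules. A list of 16 macrophage genes, the cell type best known for C1q, summed to 596 CPM in arterioles (range 277 to 816), 787 in glomeruli (633 to 1040), 240 in peritubular capillaries (153 to 386), 502 in venules (321 to 765) and 200 in whole kidney (180 to 222). Fcgr1 was at 0 in all arteriole and venule libraries, Ms4a7 in all arteriole and capillary libraries, and Cd163 in all glomerular libraries. Of the 14 listed macrophage genes tested, Lyz2 was higher and Csf1r lower in arterioles than in whole kidney, and 2 genes, Lyz2 among them, were higher in glomeruli. The part of macrophage number in the C1q levels was not tested.

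C4b, on chromosome 17 (34728380-34743882, minus strand), encodes complement C4, which the C1 proteases cleave. Its counts were 0, 3, 208 and 0 in arterioles, 2, 2, 1 and 1 in glomeruli, 26, 2, 5 and 1 in peritubular capillaries, 132, 260, 72 and 0 in venules and 59, 48, 75 and 42 in whole kidney. Only arteriole 98 and 3 of the venule libraries passed the whole kidney level, and all glomerular and capillary libraries lay below every whole kidney library, as did 18% and 18.3% of all genes. On the CPM scale the order was venules (14.9), arterioles (5.97), whole kidney (5.15), peritubular capillaries (1.08) and glomeruli (0.152), and the libraries of venules, arterioles and whole kidney overlapped. The fitted difference of glomeruli from whole kidney was -4.96 on the log2 scale (95% interval -9.30 to -0.62, edgeR adjusted p = 0.255), and it rests on 6 counts in all 4 glomerular libraries. It passed the test with DESeq2 (adjusted p = 0.0253) and in a fit of glomeruli and whole kidney alone (0.00366). Reads of C4b can belong to its paralog C4a: 26.5% of the stretches of 75 bases in the last 500 bases of the C4b transcript also occur in C4a transcripts. C4a held 273 counts in venule 96, 186 in venule 100 and 28 in glomerulus 100, 8 to 25 counts in each whole kidney library, and 1 count in all other libraries together.

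C3, on chromosome 17 (57203970-57228136, minus strand), is the component that all activation routes cleave. Its levels were 145, 245, 120 and 20.1 CPM in glomeruli and 137, 125, 5.74 and 19.4 CPM in venules. Whole kidney libraries held 10.1, 16.4, 22.3 and 18.5 CPM, arterioles 0.213, 1.13, 0.899 and 37.7 CPM, and peritubular capillaries 21.5, 0.885, 0.816 and 0.391 CPM. In both of the last groups a single library carried nearly all of the C3 counts, 211 of 227 in arteriole 100 and 173 of 188 in capillary 93. Glomerulus 100, venule 98 and venule 100 lay within or below the whole kidney range, and no compartment was clear of whole kidney. The mean in glomeruli was 7.85 times that in whole kidney (132 ± 92.3 against 16.8 ± 5.11 CPM), with a log2 fold change of 2.97 (95% interval 0.33 to 5.62, edgeR adjusted p = 0.267). Glomeruli against peritubular capillaries gave the largest difference between compartments (log2 fold change 4.48, 95% interval 1.43 to 7.53, adjusted p = 0.0921), followed by arterioles against glomeruli (-3.73, adjusted p = 0.171). The test over all 4 compartments gave an adjusted p of 0.0759.

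Whether C3 passed depended on the setting and on single libraries. With all libraries kept, C3 in glomeruli passed in 5 of 7 other settings against peritubular capillaries and in 2 of 6 against whole kidney. Without arteriole 100, C3 was lower in arterioles than in whole kidney (log2 fold change -4.45, adjusted p = 0.0412), glomeruli (-7.42, 0.0149) and venules (-6.54, 0.0196). Without capillary 93, the difference of glomeruli from peritubular capillaries was 7.52 (adjusted p = 0.0165). The C3 test over all 4 compartments also passed without either library (adjusted p = 0.00372 and 0.0134) and in 4 of 5 other settings of the analysis.

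**Figure D3:**
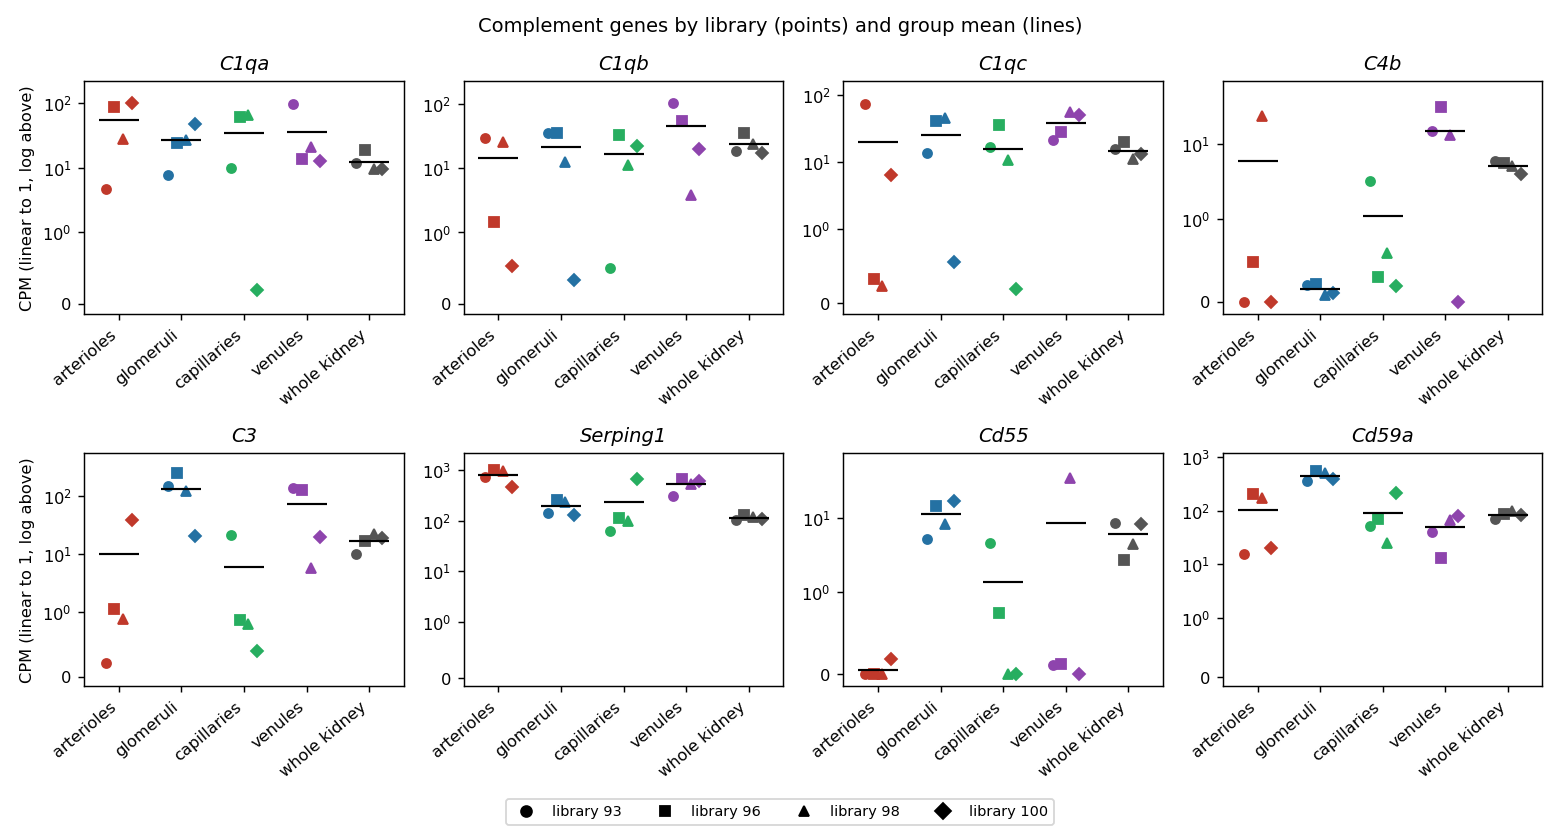
CPM of the 8 complement genes in each library (points, shape by library number) and group means (lines); the axis is linear up to 1 CPM and logarithmic above. Cd59a in glomeruli (361 to 534 CPM) lies above every other library, Serping1 is high in arterioles and venules, and the C1q chains, C4b, C3 and Cd55 scatter widely within the microdissected groups.

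Serping1, on chromosome 2 (84765387-84775444, minus strand), encodes C1 inhibitor. Arteriole libraries held 733, 993, 976 and 459 CPM and venule libraries 307, 678, 533 and 602 CPM. Glomerular libraries held 142, 262, 233 and 132 CPM, capillary libraries 63.9, 111, 101 and 662 CPM, and whole kidney libraries 104, 128, 117 and 108 CPM. All arteriole and venule libraries lay above all glomerular and whole kidney libraries, and all glomerular libraries above whole kidney. Of all genes, 8.45% lay above whole kidney in arterioles, 5.81% in venules and 14.6% in glomeruli, and 4.05% and 5.45% lay above glomeruli in arterioles and venules. Capillary 100 stood inside the arteriole and venule range, while the other 3 capillary libraries were at or below the whole kidney level.

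Serping1 mRNA was 6.91 times as abundant in arterioles as in whole kidney (790 ± 251 against 114 ± 10.4 CPM, SD, n = 4), with a log2 fold change of 2.79 ± 0.55 (SE, edgeR adjusted p = 0.000566). This call held when any 1 arteriole or whole kidney library was left out (log2 fold change 2.65 to 2.97, adjusted p up to 0.00507) and in all 6 other settings. Arterioles also exceeded glomeruli (log2 fold change 2.04 ± 0.57, adjusted p = 0.0466) and peritubular capillaries (1.75 ± 0.57, adjusted p = 0.0384). The first of these calls ended without arteriole 96, arteriole 98 or any 1 glomerular library (adjusted p up to 0.15), and the second without arteriole 96, arteriole 98, capillary 93, capillary 96 or capillary 98 (up to 0.114) and in a fit of this pair alone (0.134). Without capillary 100 the difference of arterioles from peritubular capillaries grew to 3.12 (adjusted p = 0.00012), and peritubular capillaries then lay below venules (-2.55, adjusted p = 0.0113), where the difference with all libraries had been -1.18 (adjusted p = 0.404).

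Venules held 4.63 times the whole kidney level of Serping1 (530 ± 160 CPM), a difference that missed the threshold (log2 fold change 2.21 ± 0.53, 95% interval 1.17 to 3.26, adjusted p = 0.065) and passed it in 5 of 6 other settings. Arterioles and venules did not differ by the test (0.57, 95% interval -0.51 to 1.65, adjusted p = 0.598). Glomeruli (192 ± 65.2 CPM) and peritubular capillaries (234 ± 286 CPM) differed from whole kidney by 0.75 (95% interval -0.26 to 1.76) and 1.04 (0.02 to 2.05) on the log2 scale, with adjusted p-values of 0.601 and 0.408. The order of the means was thus arterioles, venules, peritubular capillaries, glomeruli and whole kidney, and of these neighbours only glomeruli and whole kidney did not overlap.

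Genes of fibroblasts and the vessel adventitia were high in the same compartments as Serping1, arterioles and venules, but not in peritubular capillaries, where capillary 100 held 662 CPM of Serping1. Their summed level over 12 genes was 4252 CPM in arterioles (range 2806 to 6282), 2122 in venules (1243 to 3173), 775 in glomeruli (700 to 851), 191 in peritubular capillaries (153 to 252) and 402 in whole kidney (393 to 408), with no listed gene at 0 in all libraries of a group. Of these 12, 9 were called higher in arterioles than in whole kidney, and 2, Dcn and Col1a1, in venules. Smooth muscle genes, all 8 of which were called higher in arterioles than in whole kidney, summed to 984 CPM in venules (937 to 1106) against 300 in whole kidney. Genes of dendritic cells and MHC class II (9 genes) summed to 1162 CPM in arterioles, 1070 in venules and 528 in glomeruli, against 382 in whole kidney and 358 in peritubular capillaries, with 3 of the 7 tested higher in arterioles than in whole kidney. The 5 erythrocyte genes summed to 35327 CPM in arterioles, 34484 in venules and 12210 in glomeruli, against 2980 in whole kidney and 1429 in peritubular capillaries, and all 5 were higher in arterioles than in whole kidney and 4 in venules. The part of any of these cells in the Serping1 level was not tested. The 3 genes whose log2 levels followed Serping1 most closely over the 20 libraries were Apoe (Pearson correlation 0.90), Rplp1 (0.85) and Rps29 (0.84), among 13781 genes compared. This search passed over the 8 genes described here and predicted genes without a proper name.

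Both membrane regulators, Cd55 and Cd59a, had all 4 glomerular libraries above all 8 arteriole and capillary libraries, a pattern shown by 2.04% of all genes. For this reason, the 250 bases before their start sites are shown, as RefSeq gives them for GRCm38.p6, 5′ to 3′ on the strand of the gene. Promoter sequences were at hand for 5 of the 8 genes. Capitals mark matches on either strand to the GC box (GGGCGG) or to an element of Krüppel-like factors (CACACCC), and the letters of the classical TATA box (TATAAA) were searched for as well. The Cd59a window is chr2:104095551-104095800 on the plus strand of chromosome 2, and the Cd55 window is chr1:130462745-130462994 on the minus strand of chromosome 1.
Cd59a: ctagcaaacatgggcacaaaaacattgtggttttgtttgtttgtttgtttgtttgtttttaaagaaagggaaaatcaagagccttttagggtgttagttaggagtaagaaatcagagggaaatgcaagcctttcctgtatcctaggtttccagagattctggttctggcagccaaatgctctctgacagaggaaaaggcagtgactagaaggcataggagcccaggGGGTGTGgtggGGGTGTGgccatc
Cd55: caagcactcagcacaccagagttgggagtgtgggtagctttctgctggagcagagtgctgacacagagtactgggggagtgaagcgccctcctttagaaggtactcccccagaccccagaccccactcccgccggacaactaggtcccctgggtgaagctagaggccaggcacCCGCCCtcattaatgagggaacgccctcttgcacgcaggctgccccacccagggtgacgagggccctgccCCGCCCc
The Cd59a window held 2 matches to the Krüppel-like factor element, which begin 24 and 13 bases before the start, and no GC box. In the Cd55 window there were 2 GC boxes, which begin 77 and 7 bases before the start, and no match to that element, and neither window held the TATA box letters. No marked match overlaps another. Of 32851 mouse promoter windows of this length, 6.93% held the Krüppel-like factor element, 32.7% the GC box and 12.4% the TATA box letters. Such matches describe the letters and do not show binding.

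Cd55, decay accelerating factor, on chromosome 1 (130439027-130462744, minus strand), was nearly absent from the arteriole libraries, with counts of 0, 0, 0 and 1. Glomeruli held 51, 131, 104 and 150 counts, peritubular capillaries 37, 5, 0 and 0, venules 1, 1, 182 and 0, and whole kidney 84, 23, 65 and 86. All arteriole libraries thus lay below whole kidney, as did 28% of all genes, and the venule mean of 8.49 CPM came almost wholly from venule 98. Glomeruli held 11.1 CPM on average and whole kidney 5.93, and their libraries overlapped (log2 fold change 0.90, 95% interval -2.91 to 4.70, edgeR adjusted p = 0.942). For arterioles against whole kidney the fitted log2 fold change was -6.70 (95% interval -11.7 to -1.73, adjusted p = 0.0704), a value that depends on the prior count because the arteriole group holds 1 count against 258 in whole kidney. That difference passed with DESeq2 (adjusted p = 0.00556) and in a fit of this pair alone (0.00155). The gene Gm16083 overlaps exons of Cd55 on the other strand, and it held no counts in any library.

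Cd59a, on chromosome 2 (104095801-104115354, plus strand), encodes the inhibitor of the membrane attack complex. Glomerular libraries held 361, 534, 493 and 393 CPM, above each of the 16 other libraries, as was true of 1.19% of all genes. Arteriole libraries held 15.8, 207, 170 and 20 CPM, capillary libraries 50.5, 70.2, 25.2 and 214, venule libraries 40.4, 13, 66.9 and 80.1, and whole kidney libraries 68.6, 85.4, 96.4 and 80.9. Below glomeruli, the means of arterioles (103 ± 99.8 CPM), peritubular capillaries (90.1 ± 84.9), whole kidney (82.8 ± 11.5) and venules (50.1 ± 29.7) followed one another with overlapping libraries. Cd59a was thus the one gene of the 8 whose highest group was clear of every other library.

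Glomeruli exceeded venules in Cd59a by 3.15 ± 0.82 on the log2 scale (SE, edgeR adjusted p = 0.0429). This call ended when any 1 of the 8 glomerular and venule libraries was left out (adjusted p 0.0847 to 0.177) and with RLE scaling (0.0754), while the difference itself stayed between 2.83 and 3.47 in the reduced fits. Against whole kidney, Cd59a stood 5.38 times higher in glomeruli (445 ± 81.8 against 82.8 ± 11.5 CPM), and the test missed the threshold (log2 fold change 2.43 ± 0.73, 95% interval 1.00 to 3.86, adjusted p = 0.0586), which it passed in 4 of 6 other settings (adjusted p 3.1e-05 to 0.0827 over the 6). Against peritubular capillaries the difference was 2.31 (95% interval 0.75 to 3.86, adjusted p = 0.0895) and against arterioles 2.11 (0.56 to 3.66, adjusted p = 0.144). Against the mean of the other 3 compartments, a comparison added after these values were seen, Cd59a was higher in glomeruli by 2.52 ± 0.56 (adjusted p = 0.00489), where 2.46% of genes were higher, and Serping1 was higher in arterioles by 1.45 ± 0.42 (adjusted p = 0.0192), where 8.11% were.

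Cd59b, the paralog of Cd59a next to it on chromosome 2, held 641, 564, 147 and 198 counts in glomeruli. Other libraries held at most 4 counts, apart from venule 93 with 131 and the whole kidney libraries with 18 to 49. Cd59b passed the test over the 4 compartments (edgeR adjusted p = 0.0381), and in glomeruli against whole kidney its log2 fold change was 3.94 ± 1.96 (adjusted p = 0.336). It entered the first of these tests only through glomeruli, the group where it is high, so that test adds no support. No stretch of 75 bases in the last 500 bases of Cd59a transcripts occurred in another gene, while 10.8% of such stretches of Cd59b occurred in other genes, Cd59a among them, so the Cd59b counts are uncertain. Podocyte genes were likewise high in glomeruli, with all 7 called higher than in whole kidney and a summed level of 6739 to 7878 CPM per glomerular library against 185 to 206 in whole kidney. Mesangial and pericyte genes summed to 1226 CPM in glomeruli, 6363 in arterioles and 122 in whole kidney, and 5 of 7 were called higher in glomeruli. Of the 10 endothelial genes, 6 were called higher in glomeruli than in whole kidney. The part of these cells in the Cd59a level was not tested. By the search used for Serping1, the genes closest to Cd59a in pattern were Rcsd1 (Pearson correlation 0.86 over 20 libraries), Tmem98 (0.82) and Cdkn1c (0.81).

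Cd55 followed Fkbp10 (Pearson correlation 0.93 over the 20 libraries), Cep70 (0.93) and Hddc2 (0.91) most closely, and Cd55 and Cd59a correlated with each other at 0.46. Ifi35 (0.88) and Chchd6 (0.83) were among the 3 genes closest to C3, and C4b was closest to Muc1 (0.85), Ss18l1 (0.84) and Kcne1 (0.83). C1qa was closest to Dgkh (0.84), Ccdc127 (0.80) and Trpc1 (0.80), C1qb to Tmem9b (0.81), Ppan (0.80) and Abcc4 (0.80), and C1qc to Scnn1a (0.94), Sec23ip (0.87) and Ttll12 (0.85). The search passed over the 8 genes themselves and predicted genes without a proper name, so none of these could appear. The C1q chains correlated with one another at -0.26 to 0.36, below the values given for their nearest genes. All values for nearest genes are the highest among the genes kept, out of 13781, and are given as descriptions.

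The 8 genes were set beside a wider list of 58 complement genes, which includes them, of which 56 were in the table and 38 were tested against whole kidney. In arterioles, 6 of the 38 were called higher than in whole kidney and 2 lower, where 5.78% and 5.5% of all genes were. Those higher were Serping1, Clu (clusterin, a soluble inhibitor of the terminal complex; log2 fold change 2.39, edgeR adjusted p = 0.000889), the endothelial receptor gene Cd93 (4.38, adjusted p = 7.03e-06), Thbd (thrombomodulin, an endothelial membrane regulator; 3.98, adjusted p = 0.00447), Lrp1 and C1s1. C1s1, the C1s protease that C1 inhibitor blocks, was 3.68 higher (adjusted p = 0.0276), at 163 ± 92.6 CPM against 12.7 ± 2.08, and its partner C1ra was at 51.1 ± 41.1 against 8.82 ± 0.182 CPM (2.53, adjusted p = 0.153). Those lower were Cr2 and Susd4, both with no counts in any arteriole library and 14 to 62 counts in each whole kidney library. Both passed the low-count filter only through whole kidney, so that they could be called in 1 direction only. In glomeruli Cfd and Cr2 were lower and no listed gene was higher, where 1.47% and 1.59% of all genes were. The same limit holds there for Cr2 and for Cfd, which passed the filter only through whole kidney libraries and arteriole 100. Cfd held at most 5 counts in a glomerular library and ranged from 7 to 2222 counts among the whole kidney libraries. These 2 glomerular calls became 0 or 1 when any glomerular or whole kidney library was left out and 2 to 14 under other settings. Neither peritubular capillaries nor venules had a call, where 0.0941% and 0.224% of all genes were called, with up to 6 and 10 under other settings. The shares of all genes called under other settings are not given here. Lrp1, C1s1, C1ra and Susd4 are named here after their values were seen.

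By role, 1 of the 5 tested genes of the C1 complex was higher in arterioles than in whole kidney, 2 of 5 soluble regulators, 1 of 7 membrane regulators with 1 lower, and 2 of 9 receptors with 1 lower, beside 5.78% of all genes higher and 5.5% lower. Among the 4 compartments, 8 of the 27 listed genes tested differed, beside 11.4% of all genes, among them Serping1, Cd59a, Cd59b, Cd93, Clu, Calr and Mbl1. Cd59b and Mbl1 passed the low-count filter there only through glomeruli and peritubular capillaries, the groups where they are high. The count of 8 became 4 to 10 with one library left out and 8 to 14 under other settings. The shares of all genes in those fits are not given here. Clu was higher in arterioles than in glomeruli (log2 fold change 2.59, adjusted p = 0.00247) and lower in glomeruli than in venules (-2.23, adjusted p = 0.0194). Clu libraries ranged from 228 to 2532 CPM in arterioles, 706 to 847 in venules and 157 to 193 in glomeruli. The ranges were 133 to 386 CPM in peritubular capillaries and 171 to 220 in whole kidney. Clu thus had its lowest mean among the 5 groups in glomeruli, where Cd59a and Cd59b had their highest. Calr was lower in glomeruli than in peritubular capillaries (-1.62, adjusted p = 0.0136), and C8g, a part of the terminal complex, was lower in arterioles than in peritubular capillaries, with 3 counts in the arteriole group and 268, 2, 2 and 1049 in the capillary libraries. Only 3 of 8 listed genes of the lectin pathway and 2 of 7 of the terminal pathway had enough counts to be tested against whole kidney.

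**Figure D4:**
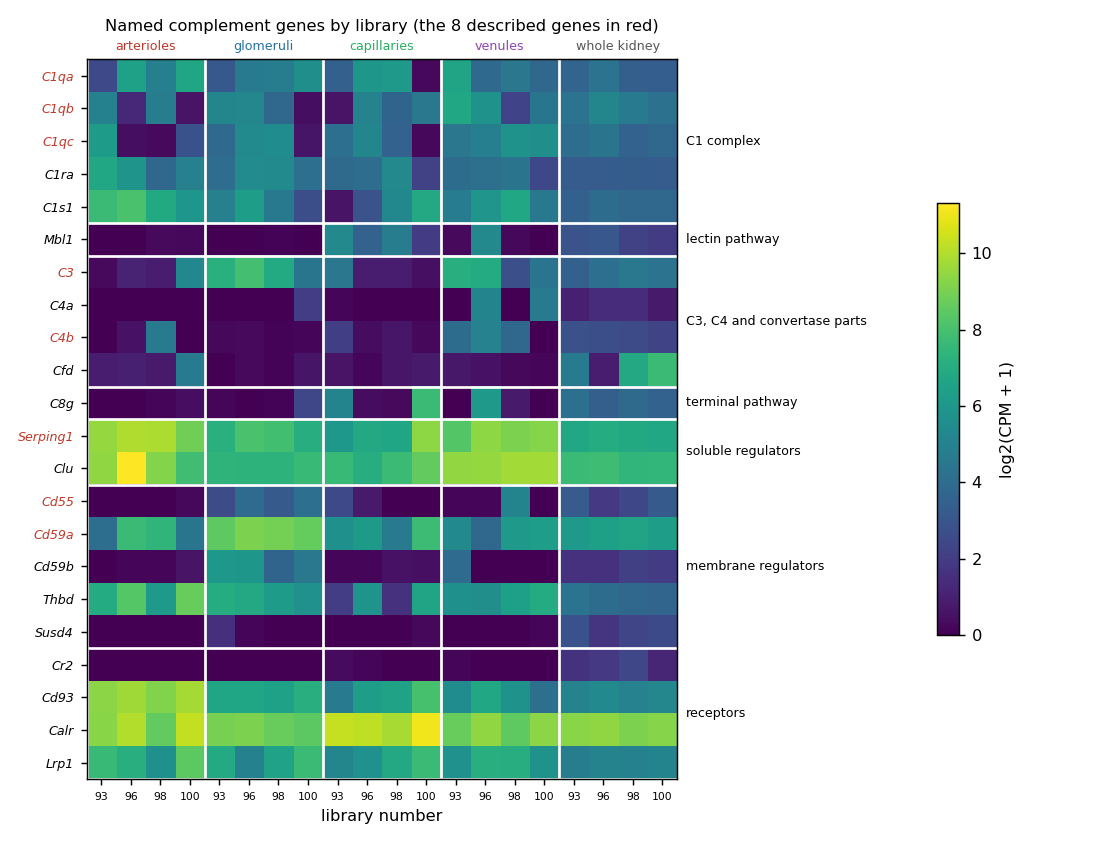
Log2(CPM + 1) of 22 complement genes named in the text (rows, by role, the 8 described genes in red) in the 20 libraries (columns, by group and library number). The colour scale is shared by all rows. Serping1 and Clu are bright in arterioles and venules, Cd93 in arterioles and Cd59a in glomeruli. Cd59b is brighter in glomeruli than in most other libraries, and the terminal and lectin pathway rows are dark in most microdissected libraries.

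In arterioles the median SD of the 8 genes' log2 CPM was 2.36. It was 0.93 in glomeruli, 1.70 in venules and 2.20 in peritubular capillaries, beside 2.32, 1.25, 1.69 and 1.91 over all genes in the 4 compartments, and 0.39 in whole kidney beside 0.27. The SD was 0.52 for Serping1 in arterioles and 0.27 for Cd59a in glomeruli, against up to 3.44 for another of the 8 genes in arterioles and 2.84 in glomeruli. The labels call the libraries of a group biological replicates and do not name the mouse behind each.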

How the data were processed

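The authors trimmed 3′ mRNA reads (QuantSeq FWD) with bbduk, aligned them with STAR 2.7 to GRCm38.p6 and made gene counts with htseq-count 0.13; the labels also list GRCm39 and featureCounts. The sources used here give neither a strand setting nor molecular identifiers. The deposited values are raw counts per gene, in 168 columns. Each of the 20 columns used was assigned to its group by name, without tying it to a labelled replicate number, and 148 columns were not used. The column of capillary 96 carries 2 further letters of unexplained meaning. Libraries held 4639090 to 12283098 counts, and no pair was identical.

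Counts were scaled by TMM, filtered with filterByExpr (minimum count 10) and tested with edgeR 4.0.16 (quasi-likelihood, R 4.3.3) with Benjamini-Hochberg adjustment over all genes tested. All 20 libraries entered the comparisons with whole kidney (13813 genes; called at an adjusted p under 0.05 and an absolute log2 fold change above 1). The 16 microdissected libraries entered those between compartments (12179 genes; adjusted p under 0.05). Intervals are 95% normal intervals from the SE. CPM are TMM-scaled, without pseudocount, and correlations used log2 CPM with a prior count of 2. The steps were tested on simulated data. Alternatives were RLE scaling, no or independent filtering, another edgeR form, DESeq2 1.42.0, other sets of libraries, a block on the number in the table and leaving out each library. Gene coordinates are from GENCODE (34193 genes matched, 99.8%). The members and gene lists were chosen with earlier results of these data known. Other complement genes were named by the smallest p in a comparison, up to 4 each, plus paralogs, and some genes that these rules name are not reported here.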

Additional observations from a re-analysis of the deposited data

Results flagged for a closer look

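For each of the 8 genes in each of the 5 groups, the library at either end was set against its nearest neighbour, and a gap above Dixon's critical share of the group's range marked it as standing apart. Chance marks about 1 in 20 groups of normally distributed values. That rate need not hold for skewed CPM with values near 0, and the share marked over all genes was not computed. Of the 40 groups here, 10 were marked, none in whole kidney or glomeruli, and this number is not read as an excess. In arterioles these were library 93 for C1qc (72.7 CPM), library 98 for C4b (23.4 CPM), and library 100 for C3 (37.7 CPM) and Cd55 (0.178 CPM, a single count). In peritubular capillaries they were library 93 for C4b (3.23 CPM), C3 (21.5 CPM) and Cd55 (4.6 CPM), and library 100 for Serping1 (662 CPM). In venules they were library 93 for C1qa (96.4 CPM) and library 98 for Cd55 (33.7 CPM). Every one was the highest library of its group. The cause was not tested.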

How the results depend on the processing

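Over the single genes, 332 values under other settings gave 298 with the same direction and call, 2 lost and 32 gained calls, and none with the opposite sign. Leaving out one library at a time gave 448 values, of which 400 kept direction and call, 22 lost and 8 gained a call, and 18 changed sign, none of them called. The causes were not tested.

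The number of the 8 genes called changed as follows. The shares of all genes called under other settings or with a library left out are not given here, so these changes are not read as particular to the 8 genes. In arterioles against whole kidney it was 2 with DESeq2 and in a fit of the pair only (1 as reported). In glomeruli against whole kidney it was 1 without a filter, with the independent filter and with DESeq2, 2 with the version 4 form of edgeR and 3 in the pair fit (0 as reported). In venules against whole kidney it was 1 in each of these 5 settings (0 as reported). In arterioles against glomeruli it was 3 with the version 4 form and DESeq2 and 2 in the pair fit (1 as reported), in arterioles against peritubular capillaries 0 in the pair fit (1 as reported), and in arterioles against venules 1 with DESeq2 (0 as reported). In glomeruli against peritubular capillaries it was 2 with the independent filter, the version 4 form, the pair fit and a fit of all 20 libraries, and 1 with DESeq2 (0 as reported). In glomeruli against venules it was 0 with RLE scaling and 2 with the independent filter, DESeq2 and the pair fit (1 as reported).

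With one library left out, the number ranged from 1 to 2 in arterioles against whole kidney, 0 to 2 against glomeruli, and 0 to 1 against peritubular capillaries and against venules. It ranged from 0 to 1 in glomeruli against peritubular capillaries and in peritubular capillaries against venules, was 0 each time in glomeruli against venules, and ranged from 1 to 3 for any difference.

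Signs that changed belonged to these log2 fold changes, given as the range with one library left out. Against whole kidney they were C1qb in glomeruli (-0.64 to 0.22), C1qc in arterioles (-2.74 to 0.84) and peritubular capillaries (-0.68 to 0.50), C4b in arterioles (-4.84 to 0.62), Cd55 in venules (-5.99 to 0.92), Serping1 in peritubular capillaries (-0.32 to 1.34), and Cd59a in arterioles (-0.28 to 0.66) and peritubular capillaries (-0.77 to 0.43). Between compartments they were C3 (-2.94 to 3.79) and Cd59a (-0.36 to 1.06) in arterioles against peritubular capillaries, Serping1 in glomeruli against peritubular capillaries (-0.61 to 1.04), and Cd59a in peritubular capillaries against venules (-0.039 to 1.17).

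Of the wider list, arterioles against whole kidney had 8 calls (11.3% of all genes were called), with 7 to 17 under other settings and 5 to 9 with one library left out. With RLE scaling the median of all genes moved by 0.17 in arterioles against whole kidney and by 0.28, 0.23 and 0.23 against glomeruli, peritubular capillaries and venules. C4b in glomeruli rests on 6 counts and Cd55 in arterioles on 1 count.

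The labelled replicate numbers could not be tied to the libraries, so a replicate block was fitted on the number in the table (93, 96, 98 or 100), an alternative chosen after seeing the data. Libraries of different groups with the same number deviated together from their group means weakly at most. Their correlations ran from -0.05 to 0.06 over 40 pairs (13813 genes), beside -0.09 to 0.04 over 120 pairs with different numbers. In 41 of 80 comparisons of a library with another group, its own number gave the best match. That is more than an even pick among the 4 libraries of a group would give. The authors cut arterioles, glomeruli and venules from the same slide of each mouse, so libraries with the same number may share a mouse. The main fits treat them as unpaired. Of 53 values under the replicate block, 47 kept direction and call. C3 in glomeruli against peritubular capillaries gained a call (5.83, adjusted p = 0.0416), so that 1 of the 8 genes was called there. Of the wider list, 5 genes passed the test over the 4 compartments under the block, against 8 without it. The sign changed for C1qc in arterioles (-0.159) and peritubular capillaries (-0.392), C4b in arterioles (-1.333) and Cd55 in venules (-0.328), each against whole kidney, and for Serping1 in glomeruli against peritubular capillaries (0.068), none of them called.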
